A study of Mus musculus with 1152 samples.

Results

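Transcripts of cell-cycle arrest and p53-response genes were followed in single lymphatic endothelial cells (LECs) that had been isolated from aged mice, from the nasopharyngeal lymphatic plexus (NPLP). The genes were taken as a list of 10 names: the cyclin-dependent kinase (CDK) inhibitors Cdkn1a, Cdkn1b, Cdkn1c, Cdkn2a, Cdkn2b and Cdkn2d, the transcription factor gene Trp53, its negative regulator Mdm2, and the stress genes Gadd45b and Gadd45g. Of these, 9 were among the 23168 genes of the expression table, and Cdkn2a was not analysed here. At an equal 20000 reads per cell, Gadd45b and Cdkn1a were detected in most cells (58.8% and 53%), Gadd45g, Trp53 and Cdkn1b in 40.8% to 45.8%, Mdm2 and Cdkn2d in 27.1% to 30.8%, and Cdkn1c and Cdkn2b in few or almost none. Across cells Cdkn1a, Gadd45b and Gadd45g were correlated with each other, whereas the correlations of Trp53 with the rest lay near 0.

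CDK inhibitors hold cells out of division. The CIP/KIP proteins, encoded by Cdkn1a (p21), Cdkn1b (p27) and Cdkn1c (p57), bind cyclin and CDK complexes, and the INK4 proteins, encoded by the Cdkn2 genes, bind the CDK4 and CDK6 kinases, so that the retinoblastoma protein stays active and E2F target genes stay off. After DNA damage or other stress the p53 protein, encoded by Trp53, is stabilised and activates genes such as Cdkn1a and Mdm2, and the MDM2 protein in turn marks p53 for degradation. Since p53 is regulated largely at the level of protein stability, the amount of Trp53 mRNA is not a measure of p53 activity. GADD45 proteins bind p21 and PCNA and activate stress kinases. Lasting expression of Cdkn1a and of Cdkn2a is widely used to describe senescent cells.

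All cells came from 1 group, aged C57BL/6 mice of both sexes with no engineered allele or treatment named in the labels. Nasopharyngeal mucosa had been pooled and digested with enzymes, and sorting had kept CD31+ PDPN+ cells, each of which became a Smart-seq3 library, a method that covers full-length transcripts. No label named the animal or the sex of a cell, so the cells analysed, 56.9% of those labelled, form 1 pooled sample with no replicates. No test was therefore made, and cells of younger mice were not analysed here. Intervals below are exact (Clopper-Pearson) 95% intervals and cover counting error only, not the spread between mice. Levels are reads per 10000 reads of a cell, and log values are the natural log of 1 plus that level, as deposited.

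Depth differed widely between cells and set what could be detected. The shallowest cell held 7046 reads, the median cell 148202.5 and the deepest 10727631. Shares are therefore also given for cells thinned to 20000 reads, which 86.6% of cells reached, with 88 shallower cells left out. The LEC label held, since the 8 identity genes (Prox1, Flt4, Lyve1 and others) had a median share of 97% of cells. Of the lists for other cell types, median shares were 1.68% for the 6 haematopoietic markers, 1.83% for the 5 fibroblast markers and 0.991% for the 6 mural markers, although the fibroblast marker Dcn was detected in 30.03% of cells. The 5 blood endothelial markers had a median share of 65.9%, with Emcn (96.2%), Aqp1 (96.04%) and Plvap (65.9%) common and Vwf (10.4%) and Flt1 (2.44%) less so, and the part of such cells in the results was not tested. Cell numbers in the labels ran in 12 blocks of 96, of which 18 to 83 cells each were analysed. Whether these blocks were plates is not stated, and they are used below only as a check of spread.

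The 250 bases before the annotated start of the genes that were correlated are shown first, with Mdm2 added as the classical p53 target, because the results below turn on these genes. Sequences are from RefSeq (GRCm38.p6), 5′ to 3′ on the strand of the gene, and 8 of the 9 genes analysed had an entry. Cdkn1a has separate annotated starts for its transcripts. Distances below are to the RefSeq start, whereas the gene positions given later are from GENCODE, and the starts can differ. Most of the Cdkn2d window, with all of its marked matches, lies inside the GENCODE gene (chr9:21288410-21291407). The Gadd45b window runs past the GENCODE start (chr10:80930073). Capitals mark matches to any of 9 motifs, which were chosen after the covariation was seen.
Cdkn1a upstream start (chr17:29090729-29090978, plus strand): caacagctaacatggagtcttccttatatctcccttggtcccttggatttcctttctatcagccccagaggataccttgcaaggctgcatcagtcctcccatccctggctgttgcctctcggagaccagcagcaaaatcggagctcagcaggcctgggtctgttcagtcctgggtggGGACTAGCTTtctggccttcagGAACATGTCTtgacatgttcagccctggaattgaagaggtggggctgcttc
Cdkn1a downstream start (chr17:29093519-29093768, plus strand): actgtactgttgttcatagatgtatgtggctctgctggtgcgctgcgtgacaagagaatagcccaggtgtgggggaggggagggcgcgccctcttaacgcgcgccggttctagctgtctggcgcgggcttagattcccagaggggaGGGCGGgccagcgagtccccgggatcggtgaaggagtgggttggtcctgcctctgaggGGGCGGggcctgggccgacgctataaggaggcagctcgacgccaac
Cdkn2d (chr9:21291210-21291459, minus strand): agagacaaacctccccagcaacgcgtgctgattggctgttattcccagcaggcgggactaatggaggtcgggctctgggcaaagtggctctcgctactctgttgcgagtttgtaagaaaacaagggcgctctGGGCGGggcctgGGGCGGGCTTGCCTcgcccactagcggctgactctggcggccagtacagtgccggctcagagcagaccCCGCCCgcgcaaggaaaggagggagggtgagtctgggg
Gadd45b (chr10:80929841-80930090, plus strand): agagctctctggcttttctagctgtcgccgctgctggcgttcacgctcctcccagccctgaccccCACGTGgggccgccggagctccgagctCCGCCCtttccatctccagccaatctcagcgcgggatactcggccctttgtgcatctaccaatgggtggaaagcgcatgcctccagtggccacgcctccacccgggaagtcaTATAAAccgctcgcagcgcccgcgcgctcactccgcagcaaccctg
Gadd45g (chr13:51846425-51846674, plus strand): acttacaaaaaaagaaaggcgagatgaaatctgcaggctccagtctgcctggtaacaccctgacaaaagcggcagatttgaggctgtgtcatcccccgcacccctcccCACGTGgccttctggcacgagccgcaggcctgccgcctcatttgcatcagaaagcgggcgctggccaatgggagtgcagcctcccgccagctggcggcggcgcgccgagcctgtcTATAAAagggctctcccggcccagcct
Mdm2 (chr10:117710759-117711008, minus strand): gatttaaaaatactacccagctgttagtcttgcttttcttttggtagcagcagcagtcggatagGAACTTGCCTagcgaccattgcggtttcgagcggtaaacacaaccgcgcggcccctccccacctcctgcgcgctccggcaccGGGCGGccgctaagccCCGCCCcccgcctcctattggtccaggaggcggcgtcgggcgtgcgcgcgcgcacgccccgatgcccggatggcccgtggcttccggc
The p53 half-site occurred in the window of Cdkn1a before its upstream start, 73 and 51 bases before it, in Trp53 at 75 bases, and in Cdkn2d and Mdm2. Of all 32536 distinct promoter windows of this length, 7.12% held the half-site. Gadd45b and Gadd45g shared a TATAAA element on the strand of the gene, 46 and 27 bases before their starts, which 7.55% of windows held. Both also held the E-box CACGTG, against 6.04% of windows. The SP1 motif GGGCGG, searched on both strands like the motifs other than TATAAA, was found before the downstream start of Cdkn1a and in Cdkn1b, Cdkn2d, Mdm2 and Gadd45b, and in 33% of windows. In Cdkn2d, a GGGCGG overlaps the p53 half-site. CRE letters (TGACGT) were found in Cdkn2b alone, against 6.50% of windows. No window of these genes held the letters of the AP-1 motif TGANTCA (6.73% of windows), the STAT motif TTCNNNGAA (7.04%), the NF-kB motif (3.92%) or the serum response element (1.48%). A match is a run of letters and not evidence of binding, and no match says nothing of sites elsewhere.

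Cdkn1a, whose product p21 is the main CDK inhibitor induced by p53, lies at chr17:29090976-29100727 on the plus strand (GRCm38). It was detected in 72.3% of cells (interval 68.7% to 75.7%), and in 53% (48.8% to 57.2%) at 20000 reads per cell. Its level ran from 0 to 35.8 reads per 10000, the median being 0.462 and the mean 2.88, and its mean log value was 0.82 ± 0.95 (SD over all cells). A small part of the cells carried much of the transcript, since the 10% of cells with the highest level (66 cells) held 53.5% of the summed level, against a median of 44.4% for all genes detected in 60% to 80% of cells. An antisense gene, AC167363.2, overlaps Cdkn1a, and because it is not stated whether strand was used in counting, reads of these genes cannot be told apart.

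Cdkn1b encodes p27, the inhibitor best known for holding resting cells out of the cycle (chr6:134920401-134925513, plus strand). It was detected about as often as Cdkn1a, in 70.7% of cells (interval 67.1% to 74.2%), with levels from 0 to 12.9, a median of 0.172 and a mean of 0.537 reads per 10000. Many of these detections were shallow: 28.4% of the cells with Cdkn1b held only 1 to 3 reads of it, against 25.5% for Cdkn1a. This was not particular to Cdkn1b, since over the 9 genes the value ran from 20.3% (Gadd45b) to 44.4% (Cdkn2b). The share of cells with Cdkn1b fell to 40.8% (36.8% to 45%) at 20000 reads. Cdkn1c encodes p57, an imprinted inhibitor (chr7:143458339-143461050, minus strand). It was detected in 53 cells (8.08%, 6.11% to 10.4%), with a highest value of 5.13 and a median of 0. The gene Gm44732 overlaps it on the opposite strand.

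Among the INK4 genes, Cdkn2d, which encodes p19INK4d, was the one commonly detected (chr9:21288410-21291407, minus strand). It was seen in 35.5% of cells (31.9% to 39.3%) and in 27.1% at 20000 reads. Levels of Cdkn2d ran from 0 to 20.4 with a median of 0 and a mean of 0.572 reads per 10000, and the top 10% of cells held 70.2% of it. Cdkn2b, which encodes p15INK4b and lies beside Cdkn2a (chr4:89306299-89311039, minus strand), was detected in 9 cells (1.37%, 0.629% to 2.59%). A single cell, at 5.89 reads per 10000, held 77.5% of its summed level. Cdkn2c, a further INK4 gene outside the list of 10, was detected in 13.6% of cells.

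Trp53 (chr11:69580359-69591873, plus strand) was detected in 53.4% of cells (49.5% to 57.2%), and in 42.3% (38.2% to 46.4%) at 20000 reads. Its level ran from 0 to 11.7 with a median of 0.0525 and a mean of 0.855 reads per 10000. Mdm2 (chr10:117688875-117710758, minus strand) was detected in 46.2% of cells (42.3% to 50.1%), and in 30.8% (27% to 34.8%) at 20000 reads, with levels from 0 to 9.50, a median of 0 and a mean of 0.553. Trp53 was spread more evenly, as the top 10% of cells held 49.1% of its summed level and 58.7% of that of Mdm2.

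The GADD45 genes had the highest levels per exon length of the 9, as given below. Gadd45b, a stress and NF-kB response gene (chr10:80930073-80932204, plus strand), was detected in 74.4% of cells (70.9% to 77.7%), and in 58.8% at 20000 reads, with levels from 0 to 42.7, a median of 0.967 and a mean of 2.64 reads per 10000. Gadd45g (chr13:51846678-51848468, plus strand) was detected in 63.4% of cells (59.6% to 67.1%), and in 45.8% at 20000 reads, with levels from 0 to 123.8, a median of 0.133 and a mean of 3.88. Gadd45g was the more uneven of the pair, as its top 10% of cells held 69.1% of the summed level against 49.1% for Gadd45b. The third family member, Gadd45a, which is the one most often described as a p53 target, was detected in 12.3% of cells.

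**Figure D1:**
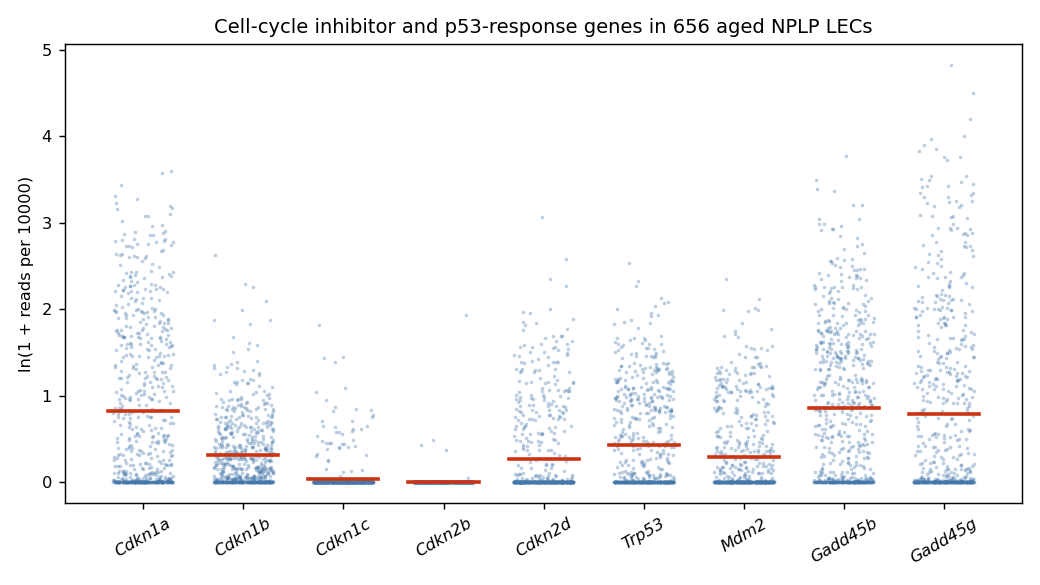
Natural log of 1 plus reads per 10000 of 9 cell-cycle arrest and p53-response genes, where each point is 1 aged NPLP LEC and each red line is the mean over all cells. Gadd45b, Cdkn1a and Gadd45g have the highest means (0.86, 0.82 and 0.79), and Cdkn2b is above 0 in 9 cells.

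Per kilobase of merged exon (GENCODE M21), which allows levels of different genes to be set side by side, the order of mean levels was Gadd45g (3.31 reads per 10000 per kb), Gadd45b (1.66), Cdkn1a (0.810), Cdkn2d (0.363), Trp53 (0.211), Cdkn1b (0.118), Mdm2 (0.109), Cdkn1c (0.0352) and Cdkn2b (0.00833). Of the 20210 genes with a length and at least 1 read, 99.1% were lower than Gadd45g, 96.5% lower than Cdkn1a and 81.1% lower than Mdm2 on this scale. Gadd45b was above Cdkn1a, and Cdkn1a above Cdkn2d, in 12 of 12 blocks of cell numbers. Cdkn1b and Mdm2 could not be ordered, since Cdkn1b was the higher in 7 of 12 blocks. Cdkn2d was above Trp53 in 9 of 12 blocks, although its share of cells with a read was smaller. Of neighbours in this order, only Mdm2 and Cdkn1c had block values that did not overlap (0.0908 to 0.157 against 0.00370 to 0.0653).

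**Figure D2:**
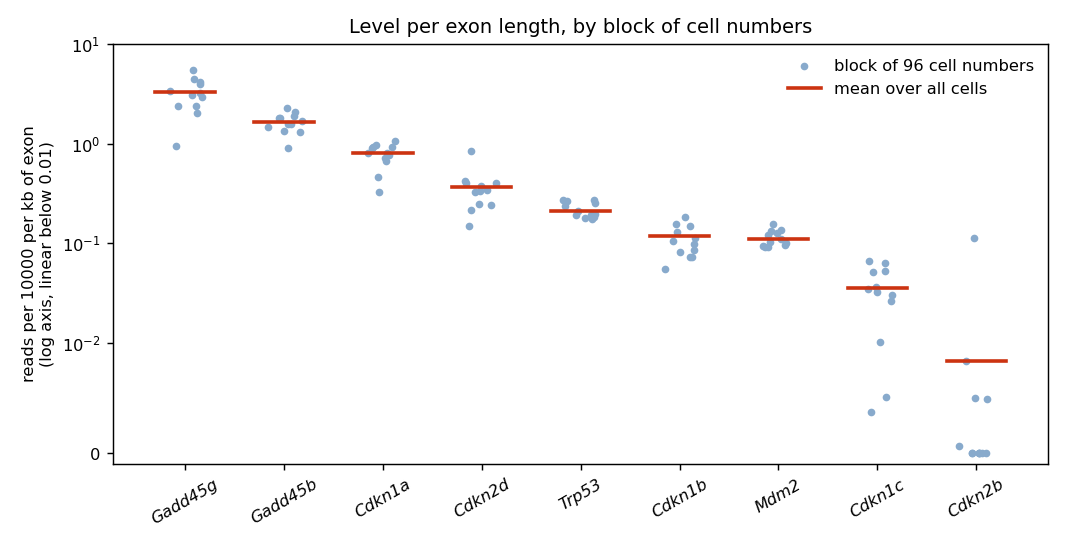
Mean level per kilobase of exon (reads per 10000 per kb, log axis that is linear below 0.01) of 9 genes, ordered by level, where red lines are means over all cells and points are the means of 12 blocks of cell numbers. Levels fall from 3.31 for Gadd45g to 0.00833 for Cdkn2b, most of which comes from 1 cell.

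Most cells carried several of these transcripts. A cell held between 0 and 8 of the 9 transcripts (median 4), and 8 cells had none of them. At 20000 reads the median was 3. Cdkn1a and Gadd45b shared cells that made up 69.8% of the cells with Cdkn1a and 62.9% of those with Gadd45b at 20000 reads. Cdkn1a and Mdm2, both p53 targets, shared cells that made up 36.5% of the cells with Cdkn1a and 62.9% of those with Mdm2. Trp53 and Mdm2 shared 70 cells, 29.2% of the cells with Trp53 and 40% of those with Mdm2.

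Whether the genes varied together was described by Spearman's rho over the cells at 20000 reads, for the 7 genes detected in at least 10% of them. These correlations are across cells of 1 pool, which share libraries and depth, and carry no test. The highest were between Cdkn1a and Gadd45b (0.301), Gadd45b and Gadd45g (0.298), Cdkn1a and Gadd45g (0.280) and Cdkn2d and Gadd45g (0.256). Next came Cdkn2d and Gadd45b (0.197) and then Cdkn1a and Mdm2 (0.172). Trp53 was close to 0 with its targets, at -0.015 with Cdkn1a and -0.044 with Mdm2, and Cdkn1b lay between -0.030 and 0.056 with every other gene. Over the 21 pairs the median rho was 0.054, and 8 pairs (38.1%) were above 0.1. Over all pairs of the 7790 genes past the same lower limit of 10%, the median was 0.013 and 3.07% were above 0.1. These sets were not matched for detection beyond that limit, and the 7 genes ran from 27.1% to 58.8% of thinned cells. The part of detection in this difference was not tested. Removal of block means or cluster means moved the rho of Cdkn1a and Gadd45b to 0.298 and 0.283.

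The genes most like Cdkn1a over these cells, among 4999 compared, were Atf3 (rho 0.424), Socs3 (0.422), Sertad1 (0.416), Fosb (0.415) and Nfkbia (0.409). For Gadd45b they were Socs3 (0.528), Ppp1r15a (0.436), Rgs16 (0.434), Junb (0.432) and Sertad1 (0.432), and for Gadd45g Socs3 (0.447), Sertad1 (0.397), Ppp1r15a (0.355), Ier3 (0.346) and Zfp36 (0.343). Socs3, a feedback inhibitor of cytokine signalling, thus stood among the nearest genes of all 3 and was also the nearest of Cdkn2d (0.334). Atf3, Fosb, Junb, Nfkbia, Ier3 and Zfp36 are immediate-early or early stress genes, a class that is switched on within minutes of stimulation and also during enzymatic dissociation of tissue. No gene reached 0.3 with Cdkn1b (highest 0.167), Trp53 (0.162) or Mdm2 (0.262, the nuclear RNA Neat1).

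The immediate-early list of 19 genes was detected in nearly all cells, with a median share of 91.2%. Fos (99.5%), Nfkbia (99.4%) and Junb (97.7%) were detected most and Jund (54.3%) least. With the summed reads of this list, rho was 0.451 for Gadd45b, 0.397 for Cdkn1a, 0.338 for Gadd45g, 0.221 for Cdkn2d and 0.157 for Mdm2, but 0.027 for Cdkn1b and -0.047 for Trp53. With this sum regressed from the ranks, a step chosen after the data were seen, the rho of Cdkn1a and Gadd45b was 0.149, of Gadd45b and Gadd45g 0.173, of Cdkn1a and Gadd45g 0.169 and of Cdkn2d and Gadd45g 0.198. The part of tissue dissociation in these levels was not tested.

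The median rho with established p53 targets was lower than that with the immediate-early genes for 6 of the 7 genes, all but Trp53. The lists also differed in detection, as given below. All 25 genes of the p53 target list were in the table, with a median share of 19.4% of cells. Plk2 (86.9%), Btg2 (84.5%) and Sesn1 (66.5%) were detected most, and Perp in none, where 3 cells would have made a share of 0.457%. Over the 13 targets detected in at least 10% of thinned cells, the median rho was 0.039 with Cdkn1a, 0.029 with Mdm2 and 0.029 with Trp53, beside medians of 0.017, 0.011 and 0.021 over all genes. Btg2, an antiproliferative gene that is itself an early response gene, had the highest rho of the 13 with Cdkn1a (0.345), Gadd45b (0.324), Gadd45g (0.220) and Mdm2 (0.199). Plk2 (0.258) and Gdf15 (0.226) followed with Gadd45b, and Plk2 reached 0.149 with Cdkn1a. With the 19 immediate-early genes the median rho was 0.314 for Cdkn1a, 0.338 for Gadd45b, 0.247 for Gadd45g, 0.132 for Mdm2 and -0.006 for Trp53. In thinned cells these genes had a median share of 76.9%, whereas the 13 targets ran from 10.2% (Polk) to 73.6% (Plk2). Of the better detected targets, Btg2 (71.3%) and Plk2 had the highest rho with Cdkn1a, but Sesn1 (52.8%) had 0.004. The part of detection in the contrast between the lists was not tested.

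**Figure D3:**
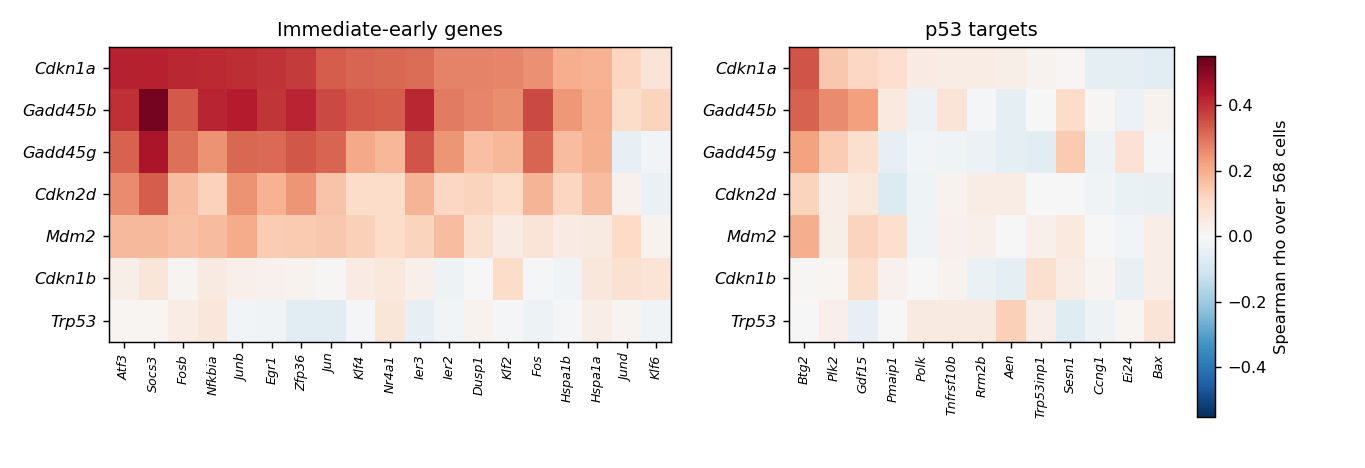
Spearman's rho over the cells thinned to 20000 reads (colour scale) between 7 of the genes (rows) and 19 immediate-early genes or 13 p53 targets (columns, ordered by rho with Cdkn1a). Cdkn1a, Gadd45b and Gadd45g are red across most immediate-early genes (medians 0.314, 0.338 and 0.247) and paler across most p53 targets, apart from Btg2 and, for Gadd45b, Plk2 and Gdf15 (0.258 and 0.226). Trp53 stays between -0.066 and 0.131 throughout.

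To ask where in the plexus these genes were highest, the cells were clustered with the 10 listed genes left out of the variable genes, which gave 5 clusters. Cluster 1 (36.4% of cells) had all 5 markers of Ptx3+ capillary LECs raised and is called Ptx3+ capillary-like. The others are called by genes picked from their 10 leading ones by fold, not always the first of these. For 3 of them no class had enough raised markers or the most of them. The last was left without a class name by a choice made after the data were seen. They are an Apoe and Clu cluster (26.4%), an Fndc1 and Tppp3 cluster (16.3%), a Gdf15 and Neo1 cluster (10.7%, 70 cells) and a Ptn and Anxa3 cluster (10.2%, 67 cells). Names were rebuilt from markers and need not match those of the study. In the Gdf15 and Neo1 cluster, 2 of the 4 upstream-valve markers were raised, Cldn11 (fold 3.06, highest of the 5 clusters) and Gata2, fewer than the 3 needed. Stc1, a marker of Ptx3- capillary LECs, was raised there too. Each cluster was set against all other cells by the fold of mean levels, with 0.1 added to both, and 1.5 times in either direction was counted. The clusters were drawn from the same cells, so these folds are descriptions.

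Cdkn1a was highest in the Gdf15 and Neo1 cluster, where its level ran from 0 to 35.8, the median being 3.78 and the mean 6.18 reads per 10000, against a mean of 2.48 in all other cells, a fold of 2.43. At 20000 reads it was detected in 68.9% (55.7% to 80.1%) of cells there and in 44.6% (37.6% to 51.7%) of Ptx3+ capillary-like cells, so these intervals did not overlap, but those of the other 3 clusters overlapped both. The difference had the same direction in 9 of 12 blocks. Cdkn1a was the 1 of 7 genes past 1.5 times in this cluster, where 17.5% of 9666 genes tested passed. Mdm2 (fold 1.497) and Gadd45b (1.49) lay just under that limit and passed it at 20000 reads (1.87 and 1.58). The share of all genes past the limit was not computed at this depth. Trp53 (1.28) was also highest in this cluster. Gdf15, a stress cytokine and p53 target, was behind only Fxyd2 among the leading genes of this cluster by fold. Its mean there was 27 reads per 10000, but it was not among the genes left out of the clustering. Of other p53 targets set against the clusters, Btg2 (fold 1.36) and Plk2 (1.23) were above other cells. Sesn1 was lowest in this cluster, at 0.899 against 1.61 reads per 10000 in other cells (fold 0.58), and was lower in 9 of 12 blocks. Immediate-early reads made up a median of 2.39% of reads in this cluster, within the range of the others (1.42% to 2.91%). With the pathway lists, Gdf15 and the immediate-early genes among them, also left out of the variable genes, the fold of Cdkn1a was 2.39 in a cluster of 68 cells, of which 98.5% came from the Gdf15 and Neo1 cluster.

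Gadd45g was highest in the Apoe and Clu cluster, with a level from 0 to 123.8, a median of 2.02 and a mean of 7.49 reads per 10000 against 2.59 in other cells, a fold of 2.82 that had the same direction in 10 of 12 blocks. Gadd45b (fold 1.62, higher in 9 of 12 blocks) and Cdkn2d (1.57, higher in 8 of 12) were also past 1.5 times there. Thus 3 of 7 genes passed where 8.93% of all genes did. The rise of Cdkn2d was the weakest of these, with a median of 0 and a highest cell of 20.4 reads per 10000. Its fold was 1.08 for the difference of mean log values. In thinned cells, the interval of its share overlapped those of all other clusters. Cdkn1c, too rarely detected to be counted, was found in 14.5% (9.58% to 20.6%) of these cells and in 8.08% of all cells. Immediate-early reads had a median share of 2.69% in this cluster. The clustering regressed a score of the immediate-early list, as a dissociation score, and without any regression, where the rule chose resolution 0.5 in place of 0.7, the folds were larger in a cluster of 91 cells, of which 87.9% came from the Apoe and Clu cluster: 4.40 for Gadd45g, 3.30 for Gadd45b and 2.84 for Cdkn2d. In the same setting the highest Cdkn1a was 2.18 times that of other cells, in 38 cells that all came from the Gdf15 and Neo1 cluster.

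The Fndc1 and Tppp3 cluster was low for the same 3 genes, with folds of 0.53 for Gadd45b, 0.49 for Gadd45g and 0.65 for Cdkn2d, so that 3 of 7 passed where 12.8% of all genes did. Its immediate-early share was the highest of the 5 clusters (2.91%), with Fos at 107.5 reads per 10000, whereas Socs3 was low there (fold 0.64). In the Ptx3+ capillary-like cluster Cdkn1a (0.60) and Gadd45g (0.46) were low, 2 of 7 genes where 9.63% of all genes passed. In the Ptn and Anxa3 cluster Gadd45b (0.58) was low, 1 of 7 where 15% of all genes passed.

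Cdkn1b was the flattest gene across clusters, from 0.464 to 0.640 reads per 10000, a ratio of 1.38 between the highest and the lowest cluster. The ratio was 1.69 for Trp53, 1.87 for Mdm2, 2.26 for Cdkn2d, 2.55 for Gadd45b, 3.09 for Cdkn1a and 3.66 for Gadd45g. In all, 10 of the 35 pairs of gene and cluster were past 1.5 times, but the count depended on the scale: for the difference of mean log values it was 2, Cdkn1a in the Gdf15 and Neo1 cluster and Gadd45g in the Apoe and Clu cluster.

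**Figure D4:**
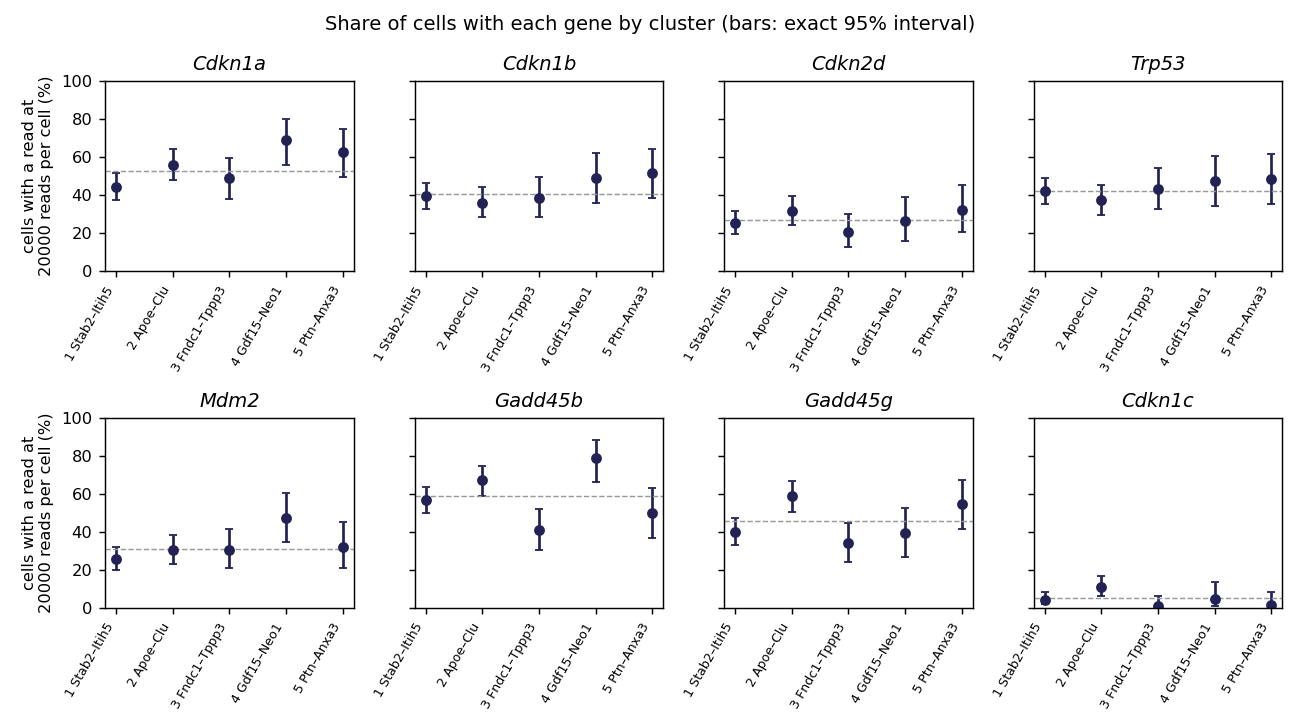
Share of cells with at least 1 read of a gene at 20000 reads per cell (y axis, percent) in 5 clusters (x axis, named by leading genes), with exact 95% intervals as bars and the share over all thinned cells as a dashed line. Cdkn1a is highest in the Gdf15 and Neo1 cluster (68.9%) and Gadd45g in the Apoe and Clu cluster (58.7%). Cdkn1b, Cdkn2d and Trp53 have overlapping intervals in all 5 clusters.

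The partners of these genes were seen at the following shares. Among 11 regulators of p53 in the table, the coactivator genes Crebbp (75.9%) and Ep300 (56.2%) and the MDM2 relative Mdm4 (58.7%) were detected most and the checkpoint kinase gene Chek1 (2.90%) least. Of the G1 genes on which the inhibitors act, Cdk4 (70.6%), Ccnd3 (50.8%) and Ccnd1 (49.7%) were common and Ccne1 (1.52%) was rare. Of 14 cycling genes, the replication genes Pcna (70.4%), Mcm6 (38.9%) and Mcm3 (35.1%) were detected most and Cdk1 in no cell, and the median share over the list was 2.97%. Further inhibitors and GADD45 partners were less common, from Gadd45gip1 (24.2%) and Cdkn2aip (23.5%) down to Cdkn3 (0.61%).

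Genes that are used beside Cdkn1a to describe senescence had correlations with it near or below 0. Of the secretory genes, 20 were in the table, with a median share of 22.1%. Timp2 (99.5%), Igfbp4 (95.3%) and Igfbp5 (89.5%) were detected most and Il1b (0.457%) least. Over the 11 detected in at least 10% of thinned cells, the median rho with Cdkn1a was -0.014, from -0.198 for Igfbp4 to 0.145 for Plaur. Hmgb1 (89.6%), Hmgb2 (42.2%) and Glb1 (31.7%) were the most detected of 6 other senescence-linked genes, and the nuclear lamina gene Lmnb1 (8.84%), which is often low in senescent cells, the least. The Spearman correlation of Cdkn1a with the 8 LEC identity genes was negative for all 8, with a median of -0.129. This was not particular to Cdkn1a, since Gadd45g was also negative with all 8 (median -0.117). The medians were -0.110 for Gadd45b, -0.075 for Cdkn2d and -0.035 for Mdm2, but 0.030 for Cdkn1b and 0.049 for Trp53.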

How the data were processed

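Aged NPLP LECs positive for CD31 and podoplanin were sequenced with Smart-seq3. Per the methods, the authors aligned reads to mm10 with STAR, counted them per gene with featureCounts and kept cells with at least 2000 genes and at most 10% mitochondrial reads. The deposited values are natural log values of 1 plus reads per 10000 in 1 table: the methods give log2, but read as natural logs the linear values add up to 10000 per cell. Taking the smallest value as 1 read made 100% of values whole within 0.01 reads. PCR copies were not collapsed.

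Cells with at least 20000 reads were thinned to that number without replacement. Clustering followed the methods of the study (Seurat 5.3.0, R 4.3.3) at the lowest resolution that gave 5 clusters, after mitochondrial share, total reads and scores of immediate-early and ribosomal genes had been regressed. A cluster was named from at least 3 raised markers of 1 class, more than of any other. The Ptn and Anxa3 cluster met that count (Ptn, Stc1 and Anxa3) but was left unnamed after the data were seen. Positions and lengths are from GENCODE M21 (22224 symbols found). Shares and intervals used scipy 1.17.1. Of each list, the 3 most and the 1 least detected genes were named, and, beside each gene, the 5 most correlated ones with rho of at least 0.3. Gadd45a, Cdkn2c, Gdf15, Dcn and genes below 0.3 were named after their values were seen. The genes and lists were chosen with earlier results of these data known. Read recovery, thinning, clustering, folds and correlations were tested on simulated data.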

Additional observations from a re-analysis of the deposited data

How the results depend on the processing

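The median share of cells over the 9 genes (53.4%) depended on depth and on the limit for detection. It was 40.8% at 20000 reads, 47.9% at 50000 reads, 59.2% in the cells with at least 3000 genes and 13.3% for log values above 1, and stayed between 52.1% and 54.6% when any block of cell numbers was left out. The median share of the p53 targets (19.4%) was 10.2% at 20000 reads and 2.29% for log values above 1. In the 5 main clusters 10 pairs of gene and cluster were past 1.5 times. There were 17 at resolution 1 (7 clusters) and 22 at resolution 1.5 (9 clusters), where more clusters make more pairs. The count was 2 for the difference of mean log values and 12 to 15 in the other settings. The share of all genes past the limit was computed for the 5 main clusters only. At resolution 1.5 the highest Cdkn1a (fold 2.35) lay in a cluster of 69 cells, 50.7% of them from the Apoe and Clu cluster. The median log level of the 9 genes (0.32) and the median rho (0.054) moved by less than the spread in all alternatives run, the first from 0.30 to 0.45 and rho from 0.047 to 0.074. No paired analysis was possible because all cells belong to 1 group and no result comes from a test.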
